A study of Mus musculus with 17 samples.

Results

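Gene expression in 4 livers labelled as FSP1 ablated was set against 4 healthy livers, 8 of the 17 arrays of the series, chosen by their titles. The first group came from mice treated with carbon tetrachloride (CCl4), which kills liver cells by way of its own breakdown product and brings on scarring, and its labels read tk "FSP1 +" and CCl4-induced fibrosis. The healthy group had no treatment and reads tk "No". The comparison therefore joins a CCl4 injury with the ablation of FSP1-expressing cells, and neither can be told apart from the other within the 8 arrays. For that reason the values of 6 arrays of CCl4 liver without ablation (tk "Neg") are given beside the results, and 3 arrays of CCl4 liver with ablation of aSMA-expressing cells entered only the shared estimate of spread. The labels do not spell out the tk construct, its promoter, the ablating agent, the strain, the sex or the age, and they do not say that each array is a separate animal, so that p-values measure the spread between these arrays only.

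FSP1, the protein of S100a4, is a small calcium-binding protein used as a marker of fibroblasts, and it is also made by some macrophages. In CCl4 injury, dying pericentral hepatocytes, which hold the enzymes that activate the solvent, draw in monocytes and neutrophils, stellate cells turn into contractile cells that lay down collagen, and the surviving hepatocytes divide. Liver RNA is mostly hepatocyte RNA, whose content also follows food intake, the day's phase and sex, the last through the pattern of growth hormone release.

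All values below are log2 intensities after background correction and quantile normalization across the 17 arrays, and a gene passed where limma's test gave a Benjamini-Hochberg adjusted p under 0.05 (a 2-sided test). SEs and tests used a spread per gene shared by all 17 arrays, the CCl4 arrays included. A gene whose CCl4 arrays scatter can therefore fail to pass although the FSP1 ablated and healthy arrays stand apart. The deposited intensities had upper quartiles of 165.4 to 178.8 on the CCl4-treated arrays, ablated or not, and of 63.7 to 65.7 on the healthy ones. The 8 arrays also differ in sex-linked signal. The Y-linked gene Eif2s3y read 5.90, 5.84, 5.78 and 5.90 in FSP1 ablated liver, against 9.40, 9.28, 9.27 and 9.31 in healthy liver, where it was high on all 4 arrays. Xist, the RNA of the inactive X chromosome, read 7.78, 7.36, 7.79 and 8.05 in FSP1 ablated liver, against 5.89, 5.96, 5.79 and 5.76 in healthy liver. Group and sex-linked signal cannot be told apart within the 8 arrays. Because Eif2s3y was also high on CCl4 arrays 5 and 6 and low on CCl4 arrays 1 to 4, a fit with Y-linked signal as a block could be made, which reads the difference through the CCl4 arrays; its calls are given below as "with the Y block".

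Of 12863 genes tested, 2289 passed between FSP1 ablated and healthy liver (17.8%), with 1174 higher (9.13%) and 1115 lower (8.67%) in FSP1 ablated liver and a median log2 difference over all genes of -0.0034. In 2622 genes (20.4%) the arrays of the groups did not overlap, with 1342 higher (10.4%) and 1280 lower (9.95%). At least 2-fold, 254 were higher (1.97%) and 181 lower (1.41%). Counts of passed genes by list, given below, are to be read beside 9.13% higher and 8.67% lower of all genes. Under the Y block 166 passed (1.29%), 94 higher (0.731%) and 72 lower (0.56%), against 2158 at an unadjusted p under 0.05. In 22 of the 41 gene lists used no gene passed with the Y block, while 63 of their 354 measured genes had an unadjusted p under 0.05. List medians with the block were 1.18 for scar-associated macrophages (1.13 without it), 0.81 for fibrillar matrix (0.47) and 0.59 for acute phase proteins (0.59). They were 0.29 for female-biased genes (1.22), -0.94 for male-biased genes (-1.89) and -0.08 for immediate early genes (1.02). Fewer calls with the block therefore do not by themselves mean a smaller difference. The split of calls depends on the scaling: 51.3% of calls were higher after quantile normalization, 99.4% on the deposited scale, 94.1% after centring each array on its median and 24.8% with a common upper quartile, while the median of all genes shifted by 1.16, 0.31 and -0.12, so directions below are relative to the bulk of genes. With the common upper quartile, chosen after seeing the data, lower calls were 12 of 18 for secreted hepatocyte proteins, 12 of 20 for the respiratory chain, 9 of 20 for fatty acid oxidation, 6 of 17 for bile acids and 5 of 18 for fatty acid synthesis, against 1, 5, 4, 3 and 2 in the same order after quantile normalization. The same fit called 1671 genes for FSP1 ablated against CCl4 liver (13%) and 4394 for CCl4 against healthy liver (34.2%), both directions together. Counts by list for these contrasts are to be read beside those shares. Without 1 array at a time the count ran between 1365 and 2975, and it was 1365 without healthy array 4, 1384 without healthy array 3, 1458 without FSP1 ablated array 2 and 1471 without FSP1 ablated array 1. Among genes with a symbol, the largest rises over healthy liver that passed were in Ly6d, Cyp4a14, Cyp2b9, Lcn2 and Cyp17a1, and the largest falls in Cyp4a12a, Hsd3b5, Mup21, Mup20 and Cyp7b1. The plot of calls by gene list gives the 41 lists used, ordered by their median difference.

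**Figure D1:**
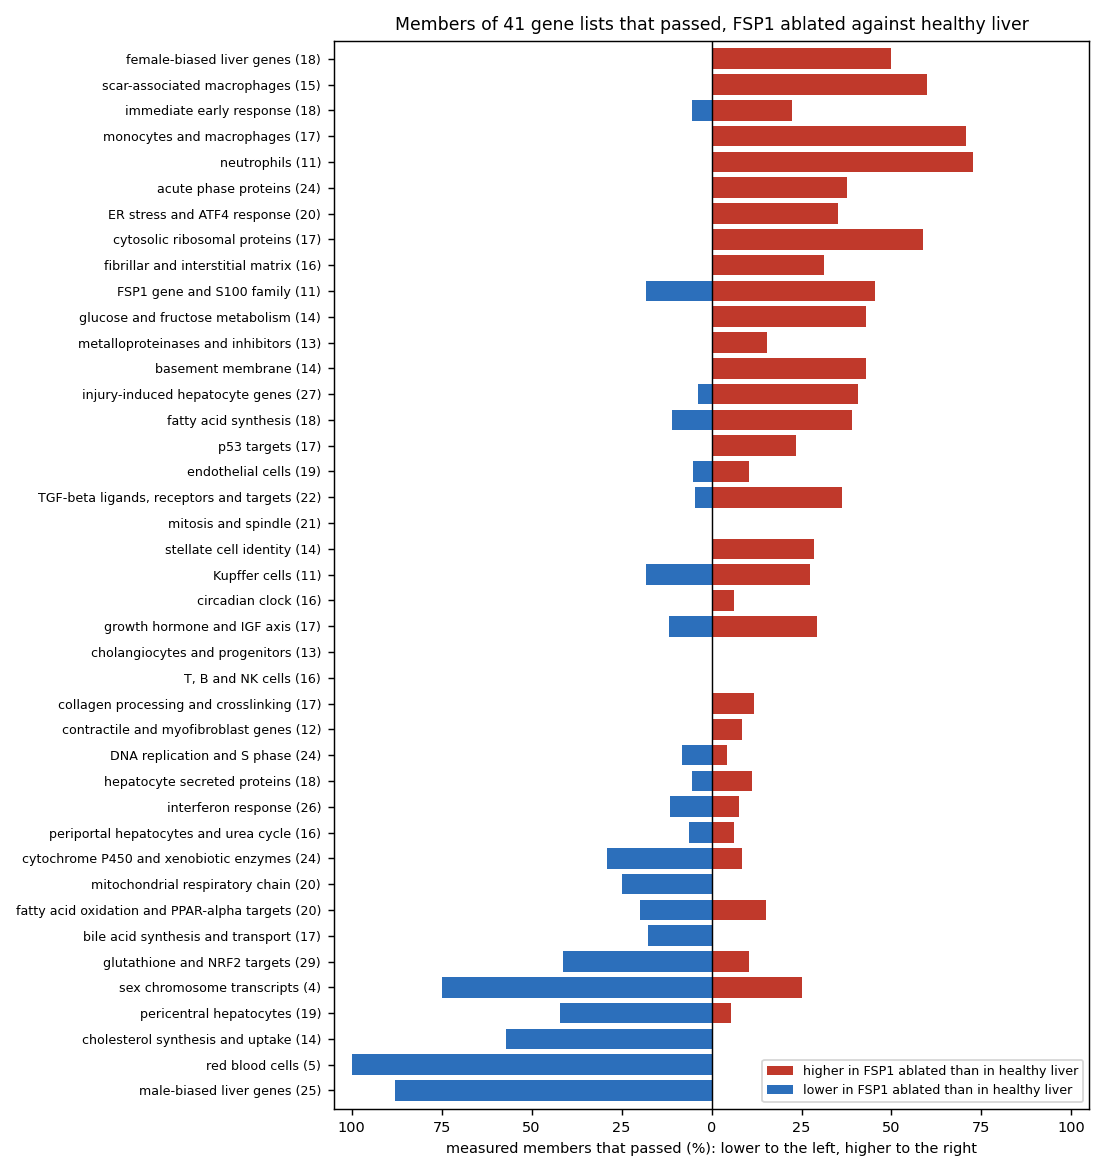
Share of the measured members of each gene list (number measured in brackets) that passed, FSP1 ablated against healthy liver, in percent: bars to the right are members higher in FSP1 ablated liver and bars to the left members lower in it, with lists ordered by median log2 difference from high (top) to low (bottom). Male-biased and red blood cell genes fill the left side, macrophage and neutrophil genes the right, and no mitosis, cholangiocyte or lymphocyte gene passed.

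The gene of the ablated marker did not pass. S100a4 read 6.23, 6.14, 6.26 and 6.22 in FSP1 ablated liver, against 6.09, 6.31, 6.27 and 6.40 in healthy liver, both near the background of the array, with a log2 difference of -0.05 ± 0.07 (SE, n = 4 each; limma adjusted p = 0.643). On the deposited scale the difference was 0.92 (limma adjusted p = 0.00569), below the shift of 1.16 in all genes there. The CCl4 arrays read 6.15 to 6.35, so this probe gives no measure of how many FSP1 cells were lost. S100a3, a calcium-binding gene that lies on chromosome 3 with only S100a2 between it and S100a4, read 7.95, 7.82, 8.21 and 7.68 in FSP1 ablated liver, against 5.88, 5.91, 6.07 and 5.95 in healthy liver. Every FSP1 ablated array lay above every healthy one, the gene was not above background on any healthy array, and the rise was at least 3.48-fold (limma adjusted p = 5.14e-09; 6.75e-06 with the Y block). The CCl4 arrays, at 5.81 to 6.10, lay at the healthy level.

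Of 11 measured S100 genes, 5 were higher (the share of all genes is 9.13%) and 2 lower in FSP1 ablated liver, with a median of 0.46, and S100a3 alone of the list passed with the Y block. S100a8, which with S100a9 forms the antimicrobial protein calprotectin of neutrophils, read 10.56, 10.73, 11.64 and 10.98 in FSP1 ablated liver, against 9.32, 7.90, 7.76 and 7.74 in healthy liver, 6.96-fold higher (limma adjusted p = 0.00207). S100a9 was 5.71-fold and S100a6, of growing and stromal cells, 2.36-fold higher (limma adjusted p = 0.00193 and 0.0104). S100a16 and S100a14 were 1.41-fold and 1.18-fold lower, and 1 gene of the list was lower on leaving out any array other than FSP1 ablated array 3 or healthy array 3. S100a11, made by many cell types, read 10.82, 10.71, 9.35 and 10.86 in FSP1 ablated liver, against 8.49, 8.44, 8.42 and 8.02 in healthy liver, and was 4.27-fold higher (limma adjusted p = 0.00101). Healthy array 3 lay inside the FSP1 ablated range for S100a14, and the groups did not overlap in the other 6 genes that passed. For S100a11 the CCl4 arrays lay higher still, at 11.71 to 12.96.

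**Figure D2:**
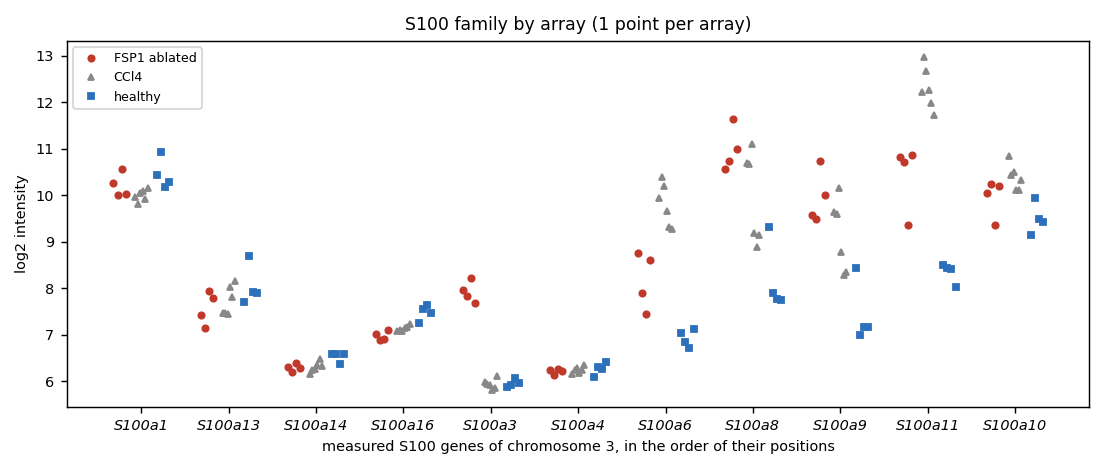
Log2 intensity of the 11 measured S100 genes in the order of their positions on chromosome 3, 1 point per array for FSP1 ablated (4), CCl4 (6) and healthy (4) liver. S100a3 is high on the 4 FSP1 ablated arrays alone, while S100a4 lies near background on all of them.

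Part of the scar matrix stood above healthy liver. The main fibrillar collagen genes Col1a1 and Col3a1 did not pass, though the groups did not overlap for Col1a1. Of 16 measured genes of the fibrillar and interstitial matrix, 5 were higher in FSP1 ablated liver and 0 lower, with a median difference of 0.47. Dcn, decorin, a small proteoglycan that coats collagen fibres, read 12.92, 13.06, 12.57 and 12.87 in FSP1 ablated liver, against 12.18, 11.54, 11.60 and 11.50 in healthy liver, 2.22-fold higher (limma adjusted p = 3.03e-04). Lum, lumican, a relative of decorin, read 9.74, 9.56, 8.77 and 8.75 in FSP1 ablated liver, against 7.63, 7.75, 7.26 and 7.36 in healthy liver, 3.26-fold higher (limma adjusted p = 0.00114). In both the groups did not overlap, and the CCl4 arrays, at 12.36 to 12.95 for Dcn and 9.19 to 10.30 for Lum, overlapped the FSP1 ablated ones. Col6a1, a chain of the microfibrillar collagen VI, was 2.35-fold, Bgn, biglycan, 1.95-fold and Thbs2, a thrombospondin, 1.77-fold higher.

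The major collagen genes read otherwise. Col1a1, a chain of type I collagen, read 7.43, 6.55, 6.65 and 6.55 in FSP1 ablated liver, against 6.02, 5.92, 5.95 and 5.97 in healthy liver. Every FSP1 ablated array lay above every healthy one, and Col1a1 was not above background on any healthy array. The difference has a bound of at least 1.6-fold and did not pass (limma adjusted p = 0.102). The CCl4 arrays read 8.26 to 9.69, above every FSP1 ablated array, with a log2 difference of -2.11 for FSP1 ablated minus CCl4 (limma adjusted p = 2.94e-04). Col3a1, which forms type III collagen, read 7.08, 6.16, 6.49 and 6.51 in FSP1 ablated liver and 6.29, 6.82, 6.51 and 6.32 in healthy liver, overlapping ranges (limma adjusted p = 0.877), against 7.68 to 9.03 on the CCl4 arrays. In the list as a whole, 15 of 16 genes were higher in CCl4 than in healthy liver with a median of 1.42, and 12 of 16 were lower in FSP1 ablated than in CCl4 liver with a median of -0.69. Of all genes, 34.2% and 13% passed in these contrasts, both directions together.

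Basement membrane genes were higher in part. Of 14 measured, 6 were higher and 0 lower than in healthy liver, with a median of 0.41. Hspg2, perlecan, a heparan sulphate proteoglycan of basement membranes, read 9.76, 9.64, 9.24 and 9.39 in FSP1 ablated liver, against 8.64, 8.18, 8.44 and 8.12 in healthy liver. Nid1, nidogen, which links laminin to collagen IV, read 9.15, 8.72, 7.95 and 8.96 in FSP1 ablated liver, against 7.49, 7.22, 7.23 and 7.20 in healthy liver. The groups did not overlap in either gene; Hspg2 was 2.24-fold (limma adjusted p = 2.09e-04) and Nid1 2.65-fold higher (limma adjusted p = 0.00489). Among 13 metalloproteinases and their inhibitors 2 were higher, the gelatinase Mmp2, 3.61-fold (limma adjusted p = 0.00174), and the membrane-bound collagenase Mmp14, 3.27-fold (limma adjusted p = 0.00151). Timp1, the main inhibitor induced in fibrosis, read 7.61, 7.02, 6.40 and 7.20 in FSP1 ablated liver and 6.83, 6.70, 6.36 and 6.24 in healthy liver (limma adjusted p = 0.202), against 8.22 to 9.33 on the CCl4 arrays. Of 17 genes for collagen processing, 2 were higher, against 9.13% of all genes. They were the prolyl hydroxylation cofactor Crtap and the crosslinking enzyme Loxl1, 1.42-fold and 2.26-fold higher. None of the 17 passed without FSP1 ablated array 1 or without healthy array 4, and 1 did without FSP1 ablated array 2 or healthy array 3.

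Contractile genes did not pass, with 1 exception. Acta2, the smooth muscle actin that marks myofibroblasts, read 7.84, 7.47, 7.07 and 7.76 in FSP1 ablated liver and 7.52, 8.62, 7.92 and 6.98 in healthy liver, a difference of -0.23 ± 0.48 (SE, n = 4 each; limma adjusted p = 0.789), with healthy array 2 the highest of the 8. The CCl4 arrays read 9.18 to 11.35. Of 12 contractile genes, 1 was higher than in healthy liver, where 9.13% of all genes were higher. It was Tpm1, a tropomyosin also made outside muscle, which read 10.70, 11.38, 9.97 and 10.74 in FSP1 ablated liver, against 9.44, 9.42, 9.13 and 8.87 in healthy liver (limma adjusted p = 0.00143). Vim, the mesenchymal filament vimentin, read 7.61, 7.34, 6.79 and 7.01 in FSP1 ablated liver and 6.57, 7.33, 6.90 and 6.52 in healthy liver, ranges that overlap (limma adjusted p = 0.409).

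Of 14 stellate cell identity genes, 4 were higher than in healthy liver, with a median of 0.17. Pdgfra, a receptor for platelet-derived growth factor on mesenchymal cells, read 8.73, 8.97, 8.35 and 8.43 in FSP1 ablated liver, against 7.87, 7.47, 7.05 and 6.45 in healthy liver, 2.66-fold higher (limma adjusted p = 0.00315). Reln, reelin, a secreted glycoprotein made in liver mainly by stellate cells, read 11.96, 11.80, 11.53 and 11.46 in FSP1 ablated liver, against 11.09, 10.58, 10.43 and 10.15 in healthy liver, 2.18-fold higher (limma adjusted p = 0.00649). Cygb, the cytoglobin of stellate cells, and Pdgfrb, the receptor most used to mark them, were 1.47-fold and 1.54-fold higher. These 4 genes did not overlap between the groups, and 2 genes of the list were higher on leaving out FSP1 ablated array 2 or 4 or healthy array 2 or 4, with 1 lower without healthy array 4. In bulk RNA, fewer cells of a type and less RNA per cell cannot be told apart. Of these lists, 1 fibrillar matrix gene (Col6a1) and 1 basement membrane gene (Col4a5, 0.39 on the log2 scale without it, limma adjusted p = 0.139) passed with the Y block, and no gene for metalloproteinases, collagen processing, contraction or stellate cells did.

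**Figure D3:**
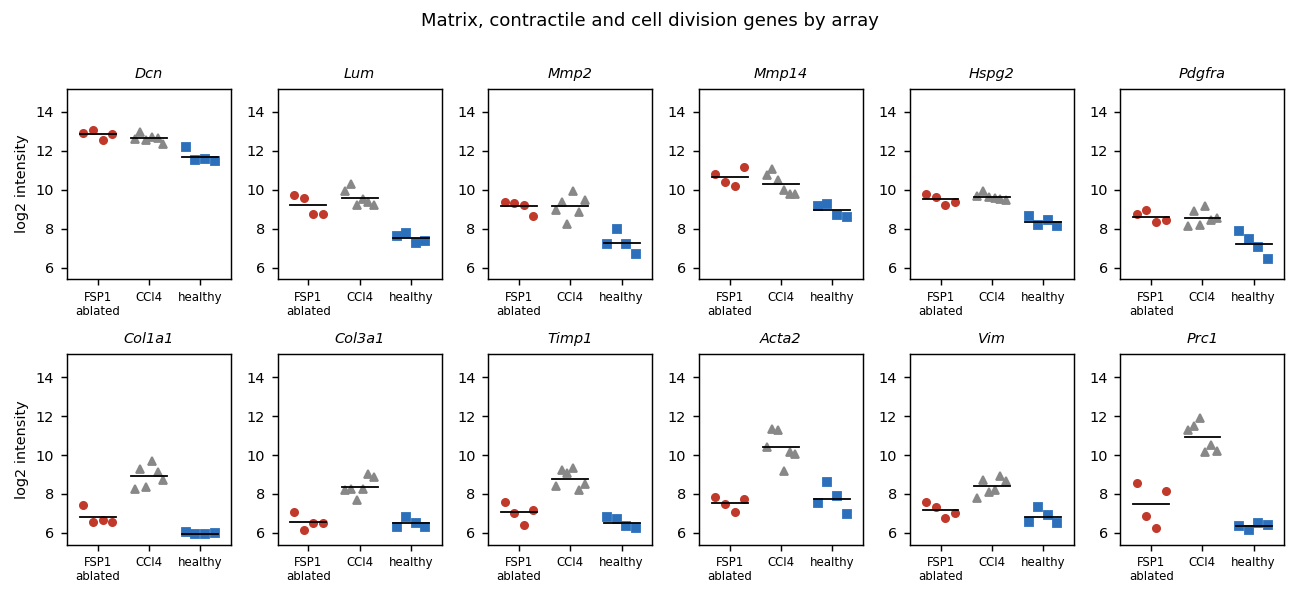
Log2 intensity of 12 matrix, contractile and cell division genes in FSP1 ablated (4 arrays), CCl4 (6) and healthy (4) liver, with 1 point per array and a line at each group's mean. The upper row holds genes that passed between FSP1 ablated and healthy liver, and the lower row genes that did not, in which CCl4 arrays stand above both groups.

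Cell division genes did not differ detectably from healthy liver. None of 21 mitosis and spindle genes passed in limma's test, 1 had an unadjusted p under 0.05, and the median difference was 0.20, or -0.03 relative to the median of all genes after median centring. On the deposited scale 17 of the 21 passed as higher, with a median of 1.91 beside the shift of 1.16 in all genes. Prc1, a spindle midzone protein, read 8.57, 6.88, 6.27 and 8.13 in FSP1 ablated liver, against 6.33, 6.13, 6.51 and 6.42 in healthy liver (limma adjusted p = 0.107), with FSP1 ablated arrays 1, 2 and 4 above all healthy arrays and array 3 within their range. Cdk1, the kinase that starts mitosis, read 7.01, 6.31, 6.59 and 6.84 in FSP1 ablated liver, against 6.0, 6.08, 6.03 and 6.22 in healthy liver, every FSP1 ablated array above every healthy one, and did not pass (limma adjusted p = 0.198). The CCl4 arrays read 10.14 to 11.88 for Prc1 and 8.37 to 10.20 for Cdk1. By list, 19 of the 21 genes were higher in CCl4 than in healthy liver, with a median of 2.29, and 19 were lower in FSP1 ablated than in CCl4 liver, with a median of -2.06. The shares of all genes that passed there, in either direction, were 34.2% and 13%.

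Of 24 genes of DNA replication, 1 was higher and 2 were lower than in healthy liver, against 9.13% and 8.67% of all genes. Ccnd1, cyclin D1, which carries cells into the cycle, read 11.01, 11.72, 10.18 and 9.84 in FSP1 ablated liver, against 8.46, 8.33, 8.80 and 8.64 in healthy liver, 4.38-fold higher (limma adjusted p = 0.00224). E2f1, a transcription factor of S phase genes, read 6.95, 6.57, 6.78 and 6.91 in FSP1 ablated liver, against 7.17, 7.33, 7.40 and 7.44 in healthy liver, 1.44-fold lower (limma adjusted p = 0.00284). Tk1, the cytosolic thymidine kinase of dividing cells, was 1.85-fold lower (limma adjusted p = 0.0181), with FSP1 ablated array 3 in the healthy range. E2f1 and Tk1 were both higher on every CCl4 array than on any FSP1 ablated or healthy array. None of the 24 passed with the Y block, where 2 had an unadjusted p under 0.05. Of 17 p53 targets, 4 were higher and 0 lower: the cell cycle inhibitor Cdkn1a was 6.14-fold higher (limma adjusted p = 0.00226), and Phlda3, an inhibitor of Akt, 2.25-fold (limma adjusted p = 2.28e-04; 0.0144 with the Y block). Trp53inp1 and Sesn2 were 3.12-fold and 1.43-fold higher.

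Macrophage genes were higher. Of 17 measured genes of monocytes and macrophages, 12 were higher in FSP1 ablated liver and 0 lower, with a median of 0.99, against 9.13% of all genes higher. Ly86, a partner of an endotoxin receptor relative on myeloid cells, read 8.48, 8.28, 8.03 and 7.96 in FSP1 ablated liver, against 7.13, 7.08, 7.09 and 6.75 in healthy liver, 2.26-fold higher (limma adjusted p = 1.22e-04; 0.0189 with the Y block). Ms4a6d, a membrane protein of macrophages, read 9.41, 9.25, 8.71 and 9.22 in FSP1 ablated liver, against 8.04, 7.11, 6.83 and 6.88 in healthy liver, 3.8-fold higher (limma adjusted p = 4.42e-04). Laptm5, a lysosomal protein of blood cells, and Ms4a7 were 2.28-fold and 2.09-fold higher. None of the 4 genes overlapped between the groups. All 17 genes were higher in CCl4 than in healthy liver, with a median of 1.03, where 34.2% of all genes passed in either direction. Between FSP1 ablated and CCl4 liver 0 of 17 passed in limma's test (3 at an unadjusted p under 0.05), with a median of -0.18, against 13% of all genes.

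Genes of scar-associated macrophages, lipid-handling cells found around scars, were higher in 9 of 15 and lower in 0, with a median of 1.13. Cd63, a membrane protein of lysosomes and secretory vesicles that also stands in the list of injury-induced hepatocyte genes, read 11.53, 12.37, 9.83 and 11.15 in FSP1 ablated liver, against 7.58, 8.59, 7.93 and 7.46 in healthy liver, 10.1-fold higher (limma adjusted p = 1.73e-04). Cd9, a relative of Cd63, read 10.45, 10.54, 9.20 and 10.14 in FSP1 ablated liver, against 8.33, 8.68, 8.37 and 8.31 in healthy liver, 3.16-fold higher (limma adjusted p = 9.75e-04). Lpl, lipoprotein lipase, and Fabp5, a fatty acid carrier, were 2.88-fold and 2.38-fold higher. FSP1 ablated array 3 was the lowest of its group for Cd63, Cd9 and Fabp5. Gpnmb, a glycoprotein of lipid-laden macrophages named here after its values were seen, read 10.85, 10.25, 9.93 and 10.11 in FSP1 ablated liver, against 6.08, 11.01, 6.16 and 6.25 in healthy liver, where array 2 stood with the ablated ones. Leaving out 1 array at a time, 7 to 10 genes of the list passed. Among 11 Kupffer cell genes, 3 were higher and 2 lower. Vsig4, a complement receptor of resident Kupffer cells, was 2.25-fold higher (limma adjusted p = 0.00373), Cd207, a lectin, 2.18-fold (limma adjusted p = 0.0014), and Slc40a1, the iron exporter ferroportin, 1.45-fold. Il18bp, the binding protein of interleukin 18, was 1.34-fold lower, and C6, a complement component that is also made by hepatocytes and male-biased in mouse liver, 10.7-fold lower.

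Neutrophil genes were higher in 8 of 11 and lower in 0, with a median of 0.96. Besides the calprotectin genes, Lcn2, an iron-scavenging protein of neutrophils and of stressed hepatocytes, read 13.42, 13.94, 12.88 and 14.58 in FSP1 ablated liver, against 13.06, 8.06, 8.25 and 8.05 in healthy liver. Healthy array 1 stood with the ablated arrays and the other 3 healthy arrays were far below, and the rise was 20.4-fold over the group (limma adjusted p = 0.00286). Retnlg, a secreted protein of neutrophils, read 7.23, 8.05, 7.84 and 7.61 in FSP1 ablated liver, against 6.65, 6.01, 5.95 and 5.84 in healthy liver, 2.97-fold higher (limma adjusted p = 0.00605), with no overlap. The count of neutrophil genes was 4 without FSP1 ablated array 3 or 4 and without healthy array 2, 3 or 4. Of 16 genes of T, B and NK cells, 0 passed in limma's test and 3 had an unadjusted p under 0.05, with a median of 0.08. The Y block left Ly86 and Ms4a7 of the macrophage genes and Cd63 and Lipa, a lysosomal lipase, of the scar-associated ones past the threshold, and no Kupffer or neutrophil gene. Of 19 endothelial genes, 2 were higher and 1 lower, against 9.13% and 8.67% of all genes. Lyve1, a hyaluronan receptor, and Clec4g, a lectin of sinusoids, were 1.86-fold and 1.63-fold higher, and Kdr, the receptor of vascular endothelial growth factor, 1.23-fold lower (limma adjusted p = 0.0228, 0.0285 and 0.0257). The endothelial count of higher genes was 0 without FSP1 ablated array 1 or 2 or healthy array 3 or 4, 1 without FSP1 ablated array 4 or healthy array 2, 4 without healthy array 1 and 5 without FSP1 ablated array 3. With the Y block Lyve1 and Kdr passed. No gene of 13 for cholangiocytes and progenitors passed in limma's test, and 1 had an unadjusted p under 0.05.

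Genes that hepatocytes switch on when injured were higher in 11 of 27 and lower in 1 (Mup20), with a median of 0.37. Ly6d, a small surface protein known from epithelial and lymphoid cells, read 12.07, 12.65, 10.14 and 11.95 in FSP1 ablated liver, against 6.0, 5.98, 6.20 and 6.13 in healthy liver, 49.4-fold higher (limma adjusted p = 1.42e-06; 0.00157 with the Y block). Golm1, a Golgi protein that rises in liver disease, read 9.02, 8.83, 8.23 and 9.02 in FSP1 ablated liver, against 7.06, 7.01, 6.42 and 6.53 in healthy liver, 4.05-fold higher (limma adjusted p = 2.08e-04). Gpc3, a fetal glypican, read 9.15, 9.24, 9.14 and 8.28 in FSP1 ablated liver, against 6.44, 6.54, 6.15 and 6.35 in healthy liver, 5.97-fold higher (limma adjusted p = 2.29e-04; 2.55e-04 with the Y block). None of these overlapped between the groups, and FSP1 ablated array 3 was the lowest for Ly6d and Golm1. On the CCl4 arrays Ly6d read 11.14 to 12.45, within the FSP1 ablated range, while Golm1 read 10.30 to 11.01, above all of it. Under the Y block 6 genes of the list passed as higher, against 94 of all 12863 genes (0.731%). Without healthy array 1 the count was 7 higher, and without FSP1 ablated array 3 it was 15.

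Acute phase proteins, secreted by hepatocytes during inflammation, were higher in 9 of 24 and lower in 0, with a median of 0.59. Cp, the copper-carrying ceruloplasmin, read 13.55, 13.71, 13.15 and 13.73 in FSP1 ablated liver, against 12.96, 12.16, 11.81 and 11.66 in healthy liver, 2.62-fold higher (limma adjusted p = 6.62e-04). Apcs, serum amyloid P, was 2.16-fold higher (limma adjusted p = 0.0012), with no overlap between the groups. Lbp, which carries endotoxin to its receptor, read 11.77, 11.78, 11.68 and 12.51 in FSP1 ablated liver, against 11.49, 9.99, 9.59 and 9.25 in healthy liver, 3.62-fold higher (limma adjusted p = 0.00391). Healthy array 1 was the highest healthy array for all 3 genes, and without it 14 members passed as higher, with a median of 1.12, while without healthy array 3 it was 5. None passed with the Y block, with 8 at an unadjusted p under 0.05. Of 18 other secreted hepatocyte proteins, Fetub, a protease inhibitor, and the clotting factor gene F9 were 1.95-fold and 1.65-fold higher and Serpina1a, an antitrypsin, 1.74-fold lower. The probe for Alb, albumin, read only 6.41 to 6.66 in FSP1 ablated and 6.29 to 6.75 in healthy liver (limma adjusted p = 0.976), and 8.66 to 9.33 on CCl4 arrays 4 to 6; a probe this dim on most arrays gives no measure of one of the liver's most abundant mRNAs.

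Genes of the endoplasmic reticulum stress and ATF4 response, which cells use when amino acids run short or proteins misfold, were higher in 7 of 20 and lower in 0, with a median of 0.53. Chac1, which breaks down glutathione, read 10.43, 11.75, 10.39 and 9.05 in FSP1 ablated liver, against 8.43, 7.74, 8.24 and 8.17 in healthy liver, 4.8-fold higher (limma adjusted p = 0.0145). Psat1, an enzyme of serine synthesis, read 9.99, 10.02, 6.60 and 8.58 in FSP1 ablated liver, against 6.16, 6.12, 6.83 and 6.36 in healthy liver, with array 3 of the ablated group at the healthy level and a fold of 5.38 (limma adjusted p = 0.012). Vldlr, a lipoprotein receptor, and the transcription factor gene Atf5 were 2.19-fold and 1.86-fold higher. The count was 3 without FSP1 ablated array 1 or healthy array 2, 3 or 4, and 2 without FSP1 ablated array 2. It was 1 with the 8 arrays normalized and fitted alone, 2 with only these 2 groups in the fit and 3 with no filter on dim probes. With the Y block the count was 0, where 3 had an unadjusted p under 0.05.

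The promoters of the ATF4 list were searched for TTGCATCA, the core of the element that ATF4 with a C/EBP partner binds, on both strands of the 250 bases before the gene start. It occurred before 5 of 20 genes of the list (25%), Chac1, Vldlr, Atf3, Fgf21 and Herpud1, against 260 of all 32851 promoters (0.791%). The list is counted by gene, a gene counting if any of its promoters holds the letters, and the whole by promoter, so the shares differ in unit. The longer amino acid response element TGATGNAAT, which can overlap the reverse complement of the core, occurred before 1 of 20 genes (5%), Fgf21, against 268 of all promoters (0.816%). Fgf21, a fasting hormone of hepatocytes, Atf3, a stress transcription factor, and Herpud1, of protein degradation at the endoplasmic reticulum, are named here only for holding the core, after their values were seen. Fgf21 was 4.82-fold and Atf3 2.36-fold higher (limma adjusted p = 0.045 and 0.043), and Herpud1 differed by 0.11 on the log2 scale (limma adjusted p = 0.659). The 250 bases before the start of the 4 core-holding genes that passed, from RefSeq in mouse build GRCm38.p6, read 5′ to 3′ along the gene's own strand, with the core or its reverse complement in capitals, are as follows. A match describes the letters and is no evidence of binding.
Chac1: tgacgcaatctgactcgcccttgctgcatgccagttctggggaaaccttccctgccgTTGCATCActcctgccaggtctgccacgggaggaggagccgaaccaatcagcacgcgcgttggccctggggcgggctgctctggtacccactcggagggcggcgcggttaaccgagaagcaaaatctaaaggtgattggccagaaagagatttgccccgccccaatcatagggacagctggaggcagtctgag
Vldlr: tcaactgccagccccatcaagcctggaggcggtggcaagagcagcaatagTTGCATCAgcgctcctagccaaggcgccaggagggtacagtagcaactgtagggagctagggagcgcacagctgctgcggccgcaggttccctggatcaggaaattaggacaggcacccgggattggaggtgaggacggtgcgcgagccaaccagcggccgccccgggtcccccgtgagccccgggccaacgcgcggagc
Atf3: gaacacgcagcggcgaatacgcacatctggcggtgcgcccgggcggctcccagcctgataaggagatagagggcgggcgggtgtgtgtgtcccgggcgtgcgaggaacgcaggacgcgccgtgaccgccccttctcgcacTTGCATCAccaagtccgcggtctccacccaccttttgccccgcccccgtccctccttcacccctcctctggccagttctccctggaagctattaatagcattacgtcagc
Fgf21: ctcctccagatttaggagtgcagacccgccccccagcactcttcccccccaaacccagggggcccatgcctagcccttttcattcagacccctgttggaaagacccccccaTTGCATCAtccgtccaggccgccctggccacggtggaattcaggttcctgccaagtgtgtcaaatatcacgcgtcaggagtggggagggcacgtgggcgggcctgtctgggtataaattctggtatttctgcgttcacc
These windows are chr2:119350992-119351241 (plus strand) for Chac1, chr19:27216770-27217019 (plus) for Vldlr, chr1:191183334-191183583 (minus) for Atf3 and chr7:45615491-45615740 (minus) for Fgf21. The first base in capitals lies 193, 200, 110 and 139 bases before the start in that order.

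Immediate early genes, which respond within minutes to growth signals or stress and also to handling, varied widely. Of 18 measured, 4 were higher and 1 lower, with a median of 1.02. Egr1, a zinc finger transcription factor, read 9.41, 12.42, 10.99 and 8.74 in FSP1 ablated liver, against 7.84, 7.43, 7.68 and 7.53 in healthy liver, 6.8-fold higher (limma adjusted p = 0.0379), with a range of several log2 units within the ablated group. Klf6 was 2.51-fold and Gadd45g 5.27-fold higher, and Ccn1, a matricellular protein, 1.55-fold lower. None of the 18 passed without FSP1 ablated array 2 or healthy array 2, 3 or 4, nor with the Y block, where 1 had an unadjusted p under 0.05, and 1 was higher without FSP1 ablated array 3. Of 26 interferon response genes, 2 were higher and 3 lower, against 9.13% and 8.67% of all genes. Gbp2, a guanylate-binding protein, rose 1.54-fold (limma adjusted p = 0.00224), and Isg15, a ubiquitin-like protein, was 2.29-fold lower (limma adjusted p = 0.0154). Usp18, which takes Isg15 off proteins, was 1.66-fold higher, and Dhx58 and Igtp were 1.52-fold and 1.79-fold lower. None was lower without FSP1 ablated array 2 or healthy array 3 or 4, 1 without FSP1 ablated array 1 or 4, and 5 without healthy array 1. None of the 26 passed with the Y block, where 1 had an unadjusted p under 0.05.

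Pericentral genes were lower. Of 19 measured genes of hepatocytes around the central vein, 8 were lower and 1 higher in FSP1 ablated liver, with a median of -0.74. After median centring 4 were lower and 4 higher, with a median of -0.26 beside a shift of 0.31 in all genes. On the deposited scale 4 were lower and 5 higher, with a median of -0.02 beside a shift of 1.16. Slc1a2, a glutamate transporter of the cells next to the vein, read 6.15, 6.69, 8.22 and 6.24 in FSP1 ablated liver, against 10.85, 10.50, 10.52 and 10.81 in healthy liver, 14.4-fold lower (limma adjusted p = 2.40e-06; 0.00138 with the Y block). Array 3 of the ablated group was the highest of the 4 and still below every healthy array, and the CCl4 arrays read 6.0 to 6.19. Other probes of Slc1a2 differed by -3.58 and -2.33 (limma adjusted p = 2.72e-07 and 2.71e-09), and a probe near background by -0.21 (limma adjusted p = 0.12). Oat, ornithine aminotransferase, read 11.29, 10.33, 11.69 and 12.28 in FSP1 ablated liver, against 13.91, 13.69, 13.63 and 13.79 in healthy liver, 5.13-fold lower (limma adjusted p = 0.00266; 0.00122 with the Y block). Cyp2e1, the enzyme that activates CCl4, read 13.83, 13.58, 14.48 and 13.73 in FSP1 ablated liver, against 14.57, 14.62, 14.58 and 14.69 in healthy liver. Every ablated array lay below every healthy one for Cyp2e1, yet the difference of -0.71 ± 0.42 did not pass (limma adjusted p = 0.258). The CCl4 arrays read 11.77 to 13.91. Ces3b, a carboxylesterase, was 8.51-fold lower, and the amino acid transporter Slc1a4 2.2-fold higher. Cyp2a5, a coumarin hydroxylase, differed by -0.98 on the log2 scale at its brightest probe and did not pass (limma adjusted p = 0.367), with overlapping groups. With every probe fitted on its own, a dimmer probe of Cyp2a5 differed by -2.14 and passed (limma adjusted p = 3.74e-05). Its remaining probes differed by -1.15 and -0.87 and did not pass (limma adjusted p = 0.464 and 0.545).

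Of 16 periportal and urea cycle genes 1 was higher and 1 lower, with a median of -0.13, which turns to 0.44 after median centring and to 0.91 on the deposited scale, beside shifts of 0.31 and 1.16 in all genes. Cyp2f2, a P450 of periportal cells, read 12.14, 10.44, 13.49 and 11.14 in FSP1 ablated liver, against 13.45, 13.66, 13.44 and 13.23 in healthy liver, 3.12-fold lower (limma adjusted p = 0.0282), with FSP1 ablated array 3 inside the healthy range, and Ctsc, a lysosomal protease, was 1.62-fold higher; neither passed without FSP1 ablated array 4 or healthy array 3 or 4, nor Cyp2f2 without FSP1 ablated array 2 or healthy array 2. The difference between the pericentral and the periportal list was not tested. Of 24 P450 and other xenobiotic enzymes, 2 were higher (Cyp2b9 and Cyp2c39, both female-biased) and 7 lower, with a median of -0.28 that becomes positive, 0.11 and 0.68, under the same 2 scalings. There 2 were lower and 8 higher after median centring, and 1 lower and 9 higher on the deposited scale. Ugt2b1, a glucuronosyltransferase, read 10.24, 9.84, 10.64 and 9.18 in FSP1 ablated liver, against 11.73, 11.93, 11.55 and 11.78 in healthy liver, 3.41-fold lower (limma adjusted p = 0.0024). The count of lower genes was 2 without FSP1 ablated array 1 or 2 or healthy array 2, 3 or 4, 4 without FSP1 ablated array 4 and 10 without FSP1 ablated array 3, and 5 were higher without healthy array 1.

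Glutathione and NRF2 target genes were lower in 12 of 29 and higher in 3, with a median of -0.32. After median centring 2 were lower and 10 higher, with a median of 0.19 beside a shift of 0.31 in all genes. On the deposited scale 0 were lower and 15 higher, with a median of 0.57 beside a shift of 1.16. Gsta1, a glutathione transferase, read 7.46, 6.94, 6.99 and 6.86 in FSP1 ablated liver, against 7.78, 8.14, 9.51 and 9.49 in healthy liver, 3.19-fold lower (limma adjusted p = 0.00414), and the CCl4 arrays lay above both groups at 9.80 to 10.47. Gstm6, of the mu class, was 2.74-fold lower, and Txnrd1, the thioredoxin reductase that NRF2 controls, read 6.59, 6.80, 6.84 and 6.77 in FSP1 ablated liver, against 6.98, 7.26, 7.27 and 7.22 in healthy liver, 1.35-fold lower (limma adjusted p = 0.00314). Gpx3, the secreted glutathione peroxidase, moved the other way, at 9.73, 9.97, 8.83 and 9.94 in FSP1 ablated liver, against 7.74, 7.98, 7.57 and 7.38 in healthy liver, 3.86-fold higher (limma adjusted p = 1.92e-04). The groups did not overlap in any of these 4 genes. Mt1 and Mt2, the metal-binding metallothioneins, were 2.07-fold and 5.33-fold higher, with healthy array 1 inside the range of the FSP1 ablated arrays for both. As lower, the pericentral genes Slc1a2, Oat and Cyp2a5 and the glutathione transferase gene Gstt2 passed with the Y block, and no gene of the xenobiotic enzyme or periportal lists did. At the brightest probe of Cyp2a5, the call (-3.84, limma adjusted p = 0.00963) arose only with that block, while a dimmer probe passed without it.

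Genes of fat synthesis and sugar handling were higher in part, and more than 1 in 2 cholesterol genes were lower. Of 18 measured genes of fatty acid synthesis, 7 were higher and 2 lower in FSP1 ablated liver, with a median of 0.28. Acaca, acetyl-CoA carboxylase, which makes the building block of fatty acids, read 12.86, 13.26, 12.40 and 11.62 in FSP1 ablated liver, against 10.60, 9.68, 9.79 and 9.56 in healthy liver, 6.17-fold higher (limma adjusted p = 1.53e-04; 0.0213 with the Y block). Scd1, the desaturase that makes oleate, read 14.21, 14.15, 13.36 and 13.47 in FSP1 ablated liver, against 11.40, 10.95, 12.41 and 11.56 in healthy liver, 4.65-fold higher (limma adjusted p = 0.00196). Fasn, fatty acid synthase, read 7.69, 7.97, 7.81 and 6.65 in FSP1 ablated liver, against 6.68, 6.25, 6.44 and 6.36 in healthy liver, 2.14-fold higher (limma adjusted p = 0.00404). FSP1 ablated array 4 was the lowest of its group for Acaca and Fasn, inside the healthy range for Fasn. Elovl3, an elongase that is male-biased in mouse liver, fell: it read 5.83, 5.81, 5.98 and 5.75 in FSP1 ablated liver, not above background on any of the 4 arrays, against 9.23, 9.84, 8.90 and 8.69 in healthy liver, at least 8.49-fold lower (limma adjusted p = 4.38e-05). Fads2, a desaturase of polyunsaturated fatty acids, was 2-fold lower, with healthy array 1 inside the FSP1 ablated range. Acaca and Fasn also stood above CCl4 liver, by 1.98 and 1.13 on the log2 scale (limma adjusted p = 2.72e-04 and 0.00167), and 5 of the 18 genes were higher and 2 lower than in CCl4 liver.

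Of 14 genes of glucose and fructose metabolism, 6 were higher and 0 lower than in healthy liver, with a median of 0.44, and 6 were higher and 2 lower than in CCl4 liver. Pklr, the liver pyruvate kinase, read 10.15, 10.53, 9.99 and 8.10 in FSP1 ablated liver, against 7.51, 7.27, 8.36 and 8.46 in healthy liver, 3.46-fold higher (limma adjusted p = 0.0119), with array 4 of the ablated group inside the healthy range. Khk, fructokinase, read 14.06, 14.31, 14.05 and 13.52 in FSP1 ablated liver, against 13.09, 12.61, 13.12 and 12.88 in healthy liver, 2.09-fold higher (limma adjusted p = 0.0106), with no overlap. Tkfc, which follows it in fructose breakdown, was 3.72-fold and Pygl, the phosphorylase that mobilises glycogen, 1.74-fold higher (limma adjusted p = 0.00181 and 6.60e-04). Acaca, Elovl3 and Pygl were the genes of both lists that passed with the Y block. For the sugar list a common upper quartile gave 2 higher and 2 lower with a median of 0.26, and median centring 12 higher.

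Cholesterol synthesis and uptake genes were lower in 8 of 14 and higher in 0, with a median of -1.01. After median centring 2 were lower and 2 higher, with a median of -0.29 beside a shift of 0.31 in all genes. On the deposited scale 0 were lower and 4 higher, with a median of -0.03 beside a shift of 1.16. Msmo1, a methylsterol oxidase, read 7.69, 8.29, 7.63 and 6.95 in FSP1 ablated liver, against 9.03, 9.42, 9.22 and 9.16 in healthy liver, 2.96-fold lower (limma adjusted p = 0.00145). Hmgcs1, the synthase ahead of the rate-limiting step, read 12.51, 12.70, 12.18 and 11.92 in FSP1 ablated liver, against 12.93, 13.84, 13.52 and 13.37 in healthy liver, 2.13-fold lower (limma adjusted p = 0.00216). Idi1, which makes the isoprenoid units, and Insig1, the sterol-sensing brake of the pathway, were 2.17-fold and 2.63-fold lower. The arrays of both groups stayed apart for these 4 genes. No gene of the list passed with the Y block, 4 had an unadjusted p under 0.05, and the count was 5 without FSP1 ablated array 4 or healthy array 2. The sterol element TCACNCCAC occurred before 1 of 11 genes of the list (9.09%), Hmgcs1, against 1.05% of all promoters. In all, 6 pairs of motif and list were searched. The STAT5 element TTCNNNGAA occurred before 2 of 18 male-biased (11.1%) and 3 of 15 female-biased genes (20%), against 7.02% of all promoters. The antioxidant response element TGACNNNGC occurred before 5 of 25 glutathione and NRF2 target genes (20%), against 10.2%.

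Bile acid genes included 3 that were lower of 17 and 0 higher, with a median of -0.32, which is 0.18 after median centring and 0.78 on the deposited scale. After median centring 2 were lower and 5 higher, beside a shift of 0.31 in all genes. Cyp7b1, of the alternative route of bile acid synthesis and male-biased in mouse, read 8.75, 8.26, 9.50 and 8.10 in FSP1 ablated liver, against 13.73, 13.86, 13.57 and 13.56 in healthy liver, 32.6-fold lower (limma adjusted p = 1.53e-04). Cyp27a1, which starts that route, was 2.05-fold lower, and Slco1a1, a male-biased uptake transporter, not above background on any ablated array, at least 1.18-fold lower. Without FSP1 ablated array 3, 5 bile acid genes were lower, and Cyp7b1 alone of the list passed with the Y block. Of 20 genes of fatty acid oxidation and PPAR-alpha targets, 3 were higher and 4 lower, with a median of -0.28 that turns to 0.41 after median centring, where 1 was lower and 11 higher. Acot1 and Acot2, thioesterases under PPAR-alpha, were 2.62-fold and 1.33-fold lower (limma adjusted p = 0.00978 and 0.00396). Dimmer probes of Acot2 differed by -0.03 and 0.18 and did not pass (limma adjusted p = 0.897 and 0.587). Acaa1b, a thiolase of peroxisomes, was 2.74-fold lower, and Ppargc1a, a coactivator of oxidative genes, 1.77-fold higher. Cyp4a14, a PPAR-alpha target that is female-biased in mouse, rose 32-fold and Cyp4a12a, its male-biased relative, fell, as described with the sex-biased genes. The count of higher genes was 1 without healthy array 2, 3 or 4, and Cyp4a12a, Acot1 and Acot2 passed with the Y block. Of 20 respiratory chain genes, 5 were lower and 0 higher, with a median of -0.28 that is 0.41 after median centring and 0.77 on the deposited scale; Atp5o, an ATP synthase subunit, was 2.4-fold lower, Uqcrc1 1.51-fold, Ndufb5 1.61-fold, Cycs, cytochrome c, 1.28-fold and Cox8a 1.22-fold. After median centring 0 respiratory genes were lower and 9 higher. The respiratory count of lower genes was 0 without healthy array 4, 1 without FSP1 ablated array 1 or 2 or healthy array 2 or 3, 3 without FSP1 ablated array 4, and 8 without FSP1 ablated array 3 or healthy array 1. With the Y block none of these 5 passed, while Uqcrfs1, a subunit of complex III that did not pass without it (limma adjusted p = 0.633), was lower (limma adjusted p = 0.0439).

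**Figure D4:**
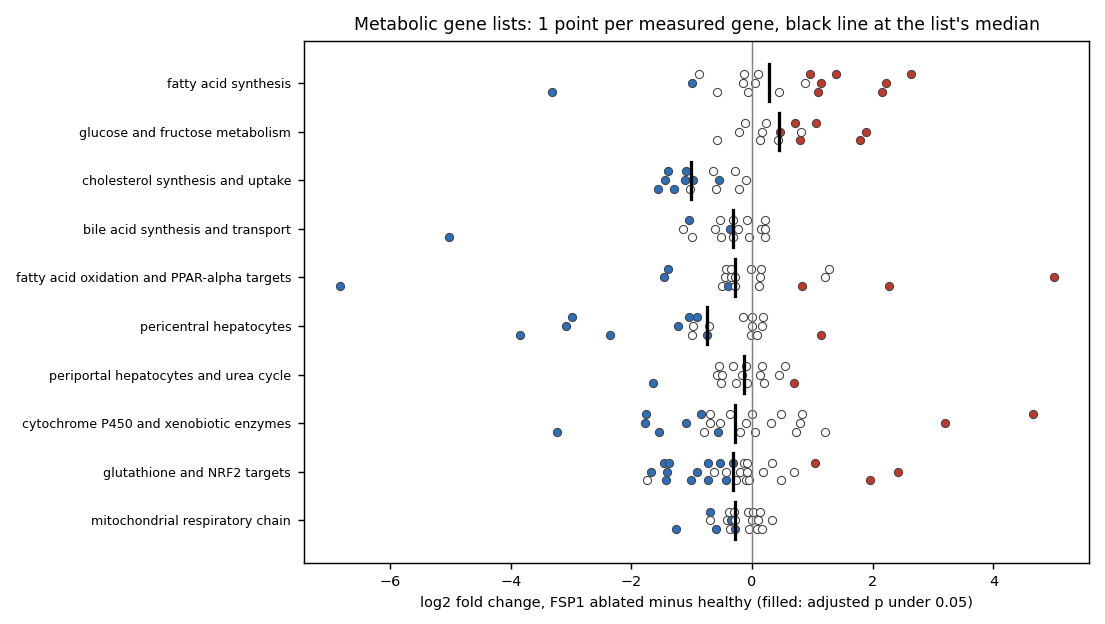
Log2 difference, FSP1 ablated minus healthy liver, of each measured gene of 10 metabolic lists: filled points passed (red higher, blue lower in FSP1 ablated liver), open points did not, and the black line is the list's median. Fat synthesis and sugar genes carry filled points to the right, cholesterol genes only to the left, and points are spread in height for clarity.

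Of the genes named here, the 5 with the largest falls all belong to the list of male-biased liver genes. Of 25 measured male-biased genes, 22 were lower in FSP1 ablated liver and 0 higher, with a median of -1.89; 9 of 18 female-biased genes were higher and 0 lower, with a median of 1.22. Cyp4a12a, a fatty acid hydroxylase of male liver, read 6.16, 6.26, 6.16 and 5.91 in FSP1 ablated liver, against 12.83, 12.87, 12.97 and 13.17 in healthy liver, 114-fold lower (limma adjusted p = 8.86e-04). Hsd3b5, a steroid enzyme of male liver, read 6.31, 6.16, 6.31 and 6.13 in FSP1 ablated liver, against 11.90, 12.80, 13.06 and 13.08 in healthy liver, 89.2-fold lower (limma adjusted p = 1.73e-04). Mup21, a major urinary protein, which carries male scent, read 8.54, 7.73, 8.03 and 8.28 in FSP1 ablated liver, against 14.25, 14.48, 14.35 and 14.44 in healthy liver, 75.3-fold lower (limma adjusted p = 2.30e-04). The groups stood far apart in all 3, as they did in the Y-linked and Xist signals.

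The CCl4 arrays split by the same signal. CCl4 array 4 was low in both, with 5.85 for Eif2s3y and 6.07 for Xist. Cyp4a12a read 11.69 to 12.19 on the 2 CCl4 arrays with Y-linked signal and 6.61 to 6.94 on the other 4 CCl4 arrays. Mup21 read 12.46 to 12.54 on the 2 arrays and 8.51 to 8.81 on the other 4. Among female-biased genes, Cyp2b9 read 12.14, 11.67, 11.74 and 11.15 in FSP1 ablated liver, against 8.39, 5.99, 6.71 and 6.97 in healthy liver, and 7.19 to 7.41 on the 2 CCl4 arrays with Y-linked signal against 11.37 to 11.87 on the other 4. With the Y block Cyp2b9 differed by 0.40 (limma adjusted p = 0.782) and Cyp2c39, another female-biased P450, by -0.63 (limma adjusted p = 0.268). Cyp4a14 read 11.26, 11.11, 11.85 and 10.94 in FSP1 ablated liver, against 6.49, 6.22, 6.36 and 6.08 in healthy liver, and its difference with the Y block was 1.63 (limma adjusted p = 0.0964).

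Several sex-biased genes went past this split. With the Y block 7 male-biased genes were still lower, among them Hsd3b5 (-2.79, limma adjusted p = 3.73e-04), Mup21 (-2.39, limma adjusted p = 4.18e-05) and Cyp4a12a (-1.65, limma adjusted p = 3.73e-04). Susd4, a complement inhibitor, read 5.90, 6.0, 6.06 and 6.0 in FSP1 ablated liver, not above background on any of these arrays, against 9.28, 8.64, 8.78 and 8.59 in healthy liver, at least 6.71-fold lower (limma adjusted p = 3.04e-09; 4.68e-06 with the Y block), while all CCl4 arrays lay at 5.97 to 6.39. Cyp2u1, a P450 of fatty acids, was likewise not above background in FSP1 ablated liver and at least 3.47-fold lower (limma adjusted p = 7.61e-06).

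Cux2, a transcription factor that represses male-biased genes in female mouse liver, read 8.13, 8.29, 8.72 and 8.82 in FSP1 ablated liver, against 6.03, 5.97, 5.94 and 6.07 in healthy liver, 5.61-fold higher (limma adjusted p = 6.17e-08; 1.48e-04 with the Y block). It was above background on 2 of the 4 healthy arrays, as were Ly6d and Atf3, and Igfbp1, Retnlg and Slc22a26 were on 1, so the size of these rises rests in part on background. All 6 CCl4 arrays, those with Xist included, read 5.99 to 6.36, at the healthy level, and the difference of FSP1 ablated minus CCl4 liver was 2.31 (limma adjusted p = 7.08e-08). Dimmer probes of Cux2 differed by 0.56 and 0.21 (limma adjusted p = 2.1e-05 and 0.2). Cyp17a1, a steroid hydroxylase higher in female mouse liver, read 12.26, 11.91, 11.57 and 13.33 in FSP1 ablated liver, against 9.10, 8.66, 6.89 and 7.25 in healthy liver, 19.6-fold higher (limma adjusted p = 3.03e-04), and was 3.62 above CCl4 liver on the log2 scale (limma adjusted p = 3.04e-04). Cyp39a1, an oxysterol hydroxylase, and Slc22a26, an organic anion transporter, were 3.85-fold and 2.75-fold higher, and 9 of the 18 female-biased genes were higher in FSP1 ablated than in CCl4 liver. Of the sex chromosome transcripts, Kdm5d and Uty, both Y-linked, were lower with Eif2s3y and Xist higher, and none of the 4 passed with the Y block.

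**Figure D5:**
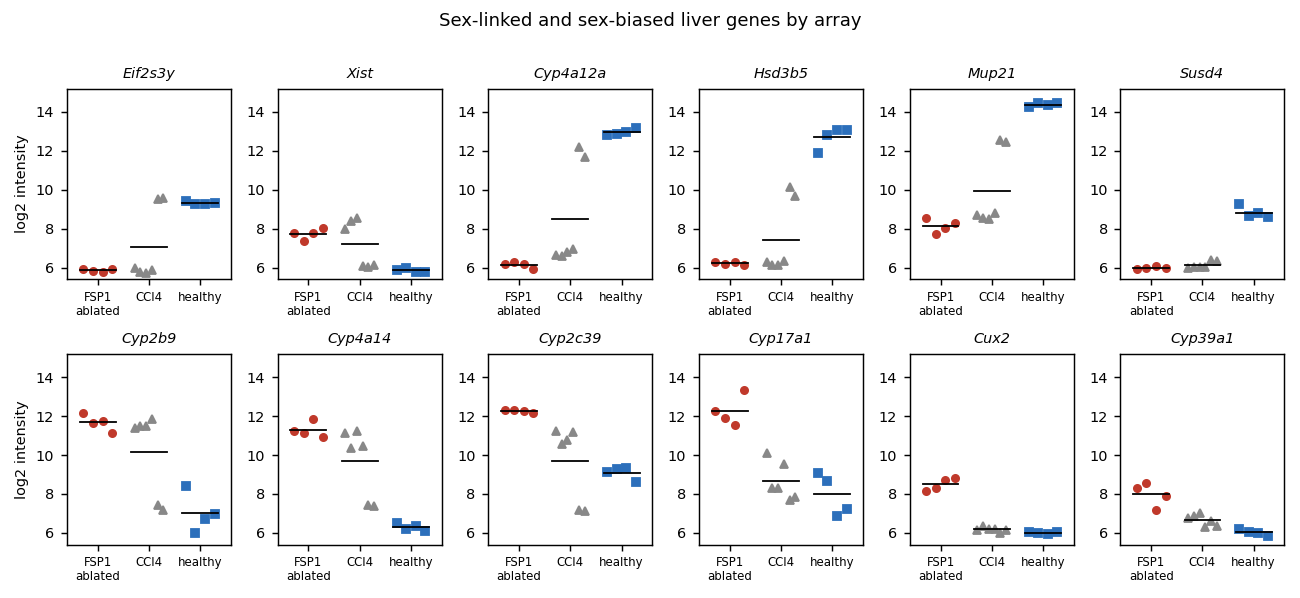
Log2 intensity of sex-linked and sex-biased genes in FSP1 ablated (4 arrays), CCl4 (6, in order of array number) and healthy (4) liver, with 1 point per array and a line at each group's mean. CCl4 arrays 5 and 6, the last 2 of each CCl4 set, lie nearer to the healthy arrays for Eif2s3y, Cyp2b9 and Cyp4a14, while Cux2 is high on FSP1 ablated arrays alone.

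The growth hormone and IGF axis, which sets the sex-biased pattern, had 5 genes higher and 2 lower of 17, with a median of 0.09. Igfbp1, a binding protein that insulin holds down, read 9.0, 10.16, 9.32 and 8.17 in FSP1 ablated liver, against 6.65, 5.97, 5.88 and 6.07 in healthy liver, 8.11-fold higher (limma adjusted p = 0.00151). Ghr, the growth hormone receptor, read 11.04, 10.81, 11.54 and 10.78 in FSP1 ablated liver, against 12.09, 12.32, 12.04 and 12.23 in healthy liver, 2.19-fold lower (limma adjusted p = 0.00923). Irs2, an adaptor of the insulin receptor, was 3.36-fold higher, as were Socs2, a feedback inhibitor, 3.11-fold, and the kinase gene Jak2 1.38-fold; Cux2 is the fifth. Bcl6, a repressor of female-biased genes, was 3.46-fold lower. The count of higher genes was 3 without FSP1 ablated array 1 or 2 or healthy array 2, 3 or 4. Of 16 clock genes, 1 passed, Nfil3, a repressor of the output genes, 2.42-fold higher (limma adjusted p = 0.0148). None passed without healthy array 3 or 4, 3 were higher and 2 lower without healthy array 1, and 3 were higher and 1 lower without FSP1 ablated array 3. None passed with the Y block, where 2 had an unadjusted p under 0.05. Dbp, an output gene with a steep daily rhythm, read 8.06, 9.48, 12.25 and 9.74 in FSP1 ablated liver and 11.34, 12.19, 12.85 and 13.19 in healthy liver, overlapping ranges (limma adjusted p = 0.0892), and Nr1d1, a clock repressor, did not pass either (limma adjusted p = 0.0706). The labels give no time of day.

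TGF-beta signalling genes were higher in 8 of 22 and lower in 1, with a median of 0.21. Inhba, which encodes an activin subunit, read 9.18, 9.22, 8.65 and 8.65 in FSP1 ablated liver, against 7.31, 6.77, 7.29 and 7.62 in healthy liver, 3.2-fold higher (limma adjusted p = 0.00177). The receptor genes Tgfbr1 and Tgfbr2 were 2.37-fold and 2.54-fold higher (limma adjusted p = 8.77e-04 and 9.75e-04). Smad2, a mediator that the receptors phosphorylate, read 7.11, 7.02, 6.95 and 7.23 in FSP1 ablated liver, against 7.56, 7.58, 7.56 and 7.71 in healthy liver, 1.44-fold lower (limma adjusted p = 2.09e-04; 0.0212 with the Y block). The groups were apart in all 4 genes, and Smad2 was the only gene of the list that passed with the Y block.

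Cytosolic ribosomal protein genes were higher in 10 of 17 and lower in 0, with a median of 0.51, each by a small factor. Rpl5 read 13.25, 13.37, 12.95 and 13.20 in FSP1 ablated liver, against 12.43, 12.51, 12.53 and 12.77 in healthy liver, 1.55-fold higher (limma adjusted p = 0.00233), and Rps24 and Rplp1 were 1.66-fold and 1.32-fold higher. The count was 6 without FSP1 ablated array 1 or healthy array 2 or 3, and 5 without FSP1 ablated array 2. It was 2 with a common upper quartile, with a median of 0.16, 2 with the replicate number as a block, and 17 after median centring. Red blood cell genes were lower in 5 of 5, with a median of -1.88. Alas2, the heme synthesis enzyme of red cell precursors, read 7.93, 7.36, 8.46 and 7.82 in FSP1 ablated liver, against 11.85, 11.72, 11.84 and 11.67 in healthy liver, 14.7-fold lower (limma adjusted p = 4.86e-04), and Hba-a1, an alpha globin, read 10.75, 7.43, 12.24 and 11.28 in FSP1 ablated liver, against 13.14, 13.67, 13.52 and 13.39 in healthy liver, 8.02-fold lower (limma adjusted p = 0.0086). The globin genes Hbb-b2 and Hbb-bt and the band 3 gene Slc4a1, above background on 1 FSP1 ablated array, were 3.68-fold, 1.73-fold and 1.97-fold lower. Red cell RNA comes from blood in the tissue, and its part in the other differences was not tested. On the 2 CCl4 arrays with Y-linked signal Alas2 read 10.70 to 11.33, against 8.04 to 9.34 on the other 4 CCl4 arrays. None of the ribosomal or red blood cell genes passed with the Y block.

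Among the largest differences not yet described, Apoa4, an apolipoprotein of fat-rich particles, was 12.1-fold higher (limma adjusted p = 7.41e-07; 9.99e-04 with the Y block), with 14.11, 14.27, 12.99 and 13.79 in FSP1 ablated liver, against 9.87, 10.76, 10.09 and 10.06 in healthy liver. Acnat2, an acyltransferase of peroxisomes, was 8.98-fold higher (limma adjusted p = 0.00171). Car3, a carbonic anhydrase, read 9.36, 6.74, 9.88 and 6.95 in FSP1 ablated liver, against 11.25, 13.46, 13.70 and 14.27 in healthy liver, 30.7-fold lower (limma adjusted p = 0.00173). Selenbp2, Sult2a8, Nat8 and Aox3, enzymes or binding proteins of drug and toxin handling, were 13.8-fold, 12.1-fold, 11.6-fold and 11.1-fold lower. On the CCl4 arrays with Y-linked signal, Selenbp2 read 12.34 to 12.51 and Aox3 11.88 to 12.29, against 9.82 to 11.15 and 9.49 to 10.44 on the other CCl4 arrays, and none of these 4 genes passed with the Y block.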

How the data were processed

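Liver RNA of 17 arrays was measured on an Illumina mouse bead array. The intensity values were deposited by the authors per probe, already background-subtracted and scaled, and came from GenomeStudio, as the submitters' processing notes name it; its version and the settings used are not given in these sources. A second table's 34 columns match no label and were not used. Of 25697 probes, 23978 have 1 gene symbol and 1719 none.

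Intensities were background-corrected (normexp, offset 50), quantile normalized across 17 arrays and taken to log2. A probe was kept (17450) if above the 95th percentile of its array's background on at least 3 arrays, and a gene was its probe of highest mean (12863 genes, 11792 with a symbol). The group means were fitted with limma 3.58.1 in R 4.3.3 (lmFit, eBayes) for 3 contrasts, with Benjamini-Hochberg adjustment over all genes and a threshold of 0.05; the fit was tested on simulated data. For genes above background on no array of a group, "at least" folds use the lowest signal above background. Named are the 15 largest rises and falls without overlap, up to 4 members of each list by p, and S100a4, S100a3, Acta2, Col1a1, Col3a1, Timp1, Cyp2e1 and Alb; Atf3, Fgf21, Gpnmb, Herpud1 and further members of counts of 5 or fewer were added after their values were seen. The 41 lists hold 828 genes, 671 measured. Members and lists were chosen with earlier results of these data known. Promoters are RefSeq's. Nothing in the labels says that replicate numbers pair the arrays. The number of arrays limits the precision.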

Additional observations from a re-analysis of the deposited data

Results flagged for a closer look

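Of 510 sets of 4 or 6 arrays tested for the genes named above, 42 held 1 array far from the rest by Dixon's 95% criterion (8.24%), where chance gives about 1 in 20.

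Among FSP1 ablated livers, array 3 stood below its 3 fellows for Atf5 (11.97), Clec4g (11.50), S100a11 (9.35) and Rplp1 (14.33). Array 1 stood above for Col1a1 (7.43, against 6.55 to 6.65 on the other FSP1 ablated arrays) and Col4a5 (6.56) and below for Cygb (8.55). Array 4 stood below for Gpc3 (8.28) and above for Lbp (12.51).

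Among CCl4 livers, array 3 stood above the rest for Gadd45g (12.81), Lcn2 (14.21) and Retnlg (8.33) and below for Col6a1 (8.42) and Thbs2 (7.12). Array 1 stood above for Fasn (6.83), array 2 below for Txnrd1 (6.51) and array 5 below for Il18bp (6.51). Array 4 stood above for Cox8a (13.53) and below for Fads2 (9.05), and array 6 below for Mt1 (14.52).

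Among healthy livers, 13 of the 22 such values lay on array 1. That array stood above for Lcn2 (13.06, against 8.05 to 8.25 on the other healthy arrays), Gadd45g (12.13), S100a8 (9.32), S100a9 (8.43), Klf6 (8.17), Dcn (12.18), Nid1 (7.49), Mt2 (10.35, against 6.57 to 7.12) and Vldlr (7.0), and below for Aox3 (12.40), Isg15 (7.62), Serpina1a (12.90) and Txnrd1 (6.98). Array 2 stood above for Gpnmb (11.01, against 6.08 to 6.25), Cd9 (8.68) and Loxl1 (7.54). Array 3 stood above for Cygb (8.46) and below for S100a14 (6.36), and array 4 below for Dhx58 (7.52), Ly86 (6.75) and S100a11 (8.02) and above for Smad2 (7.71).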

How the results depend on the processing

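The count of 2289 genes lay within 1.5 times of its value without background correction (2111), with the smaller offset (2344), with the 8 arrays alone (1867), with no (2124) or a stricter (2298) filter, for every probe (2804), with trended variances (2233) and with only both groups fitted (1900). It was 9235 on the deposited scale, 6487 after median centring and 3989 with array weights. It was 166 with Y-linked signal as a block. A common upper quartile, chosen after seeing the data, gave 3432, with 852 higher and 2580 lower. Leaving out 1 array at a time gave 1365 to 2975. The fit with the replicate number as a block gave 1128 genes. Same-numbered arrays did not deviate together (r = 0.04, -0.09, 0.15 and -0.28 over 6667 genes), which cannot exclude that they were paired. Of 172 named genes, 42 kept their direction and side of the threshold with the Y block, 122 with the replicate block and 135 to 162 on leaving out 1 array.

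Directions turned on the deposited scale for Acot2 (0.59), Cox8a (0.63), Cycs (0.77), Dhx58 (0.44), Fads2 (0.059), Gstt2 (0.14), Igtp (0.26), Ndufb5 (0.43), S100a14 (0.58), S100a16 (0.57), E2f1 (0.45), Il18bp (0.68), Kdr (0.47), S100a4 (0.92), Serpina1a (0.11), Smad2 (0.54), Tk1 (0.11), Txnrd1 (0.59), Uqcrc1 (0.34) and Uty (0.013), all below the shift of all genes by 1.16. After median centring they turned for Acot2 (0.0050), Cycs (0.16), Dhx58 (0.039), Il18bp (0.11), Ndufb5 (0.13), S100a16 (0.073), Smad2 (0.077), Txnrd1 (0.048) and Uqcrc1 (0.074), below the shift of 0.31, and for Cox8a (0.36), above it. A common upper quartile turned Rplp1 (-0.16), and the Y block turned Cyp2c39 (-0.63), Eif2s3y (0.25), Ndufb5 (0.23) and Kdm5d (0.021). Some genes had a second, dimmer probe that did not pass, among them Tgfbr1, Tgfbr2, Klf6 and Ms4a7. Brighter second probes also did not pass for Serpina1a (-0.72, limma adjusted p = 0.0765) and Usp18 (0.62, limma adjusted p = 0.133). The same held for Xist (1.43, limma adjusted p = 0.0804) and Tk1 (-0.17, limma adjusted p = 0.404). Signal near background limits S100a4, Col1a1, Col3a1 and Alb. The causes were not tested.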
